A study of Olea europaea with 12 samples.

Results

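The comparison was between olive fruit mesocarp at 30 weeks after flowering (WAF), the latest age sampled, and the same tissue at 17 WAF, the earliest. Mesocarp is the oil-storing flesh of the olive drupe, between the skin and the stone. All fruits came from field-grown trees of Olea europaea, cultivar Koroneiki, sampled over 1 season, and at each age fruits alike in colour, size and shape were taken. RNA of 3 libraries (A, B and C) was sequenced at 30 WAF and of 3 libraries at 17 WAF, and 3 libraries each at 21 and 26 WAF entered the fit and show the path between the ends. Genes were taken for the comparison when their FPKM (fragments mapped to a transcript, scaled by the transcript's length and by the number of fragments mapped in the library) was at least 1 in 3 or more of the 12 libraries. This rule kept 26131 of the 51008 genes listed, of which 22525 carried a description. The labels give no treatment or genotype that separates the groups. Fruit age and calendar date changed together between the groups and cannot be told apart, and the labels do not give the weather or the hour of picking.

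In a ripening drupe the flesh stops expanding, its walls are loosened and its pectin is cut by wall enzymes, green plastids lose chlorophyll and anthocyanins colour the cells. Olive differs from most fleshy fruits in storing triacylglycerol in the mesocarp and in making secoiridoid phenolics, bitter glucosides that beta-glucosidases split when cells break. Mannitol, a polyol, is a main transport sugar of the olive tree beside sucrose.

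Levels were tested gene by gene on the log2(FPKM + 1) scale with limma, a linear model that shares the spread between genes, and p-values were adjusted over all 26131 genes by the Benjamini-Hochberg method. A gene is said to have risen at 30 WAF or fallen at 30 WAF when its adjusted p was under 0.05. A log2 change is the mean at 30 WAF minus the mean at 17 WAF on that scale, which understates the change of genes at low levels, and SE is its standard error. The labels do not say whether the libraries A, B and C of an age came from separate trees, so the p-values measure only the spread between these libraries, which may be technical. In whole tissue, fewer cells of a type and less RNA per cell cannot be told apart.

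The libraries of one age lay close together. Correlations of log2(FPKM + 1) were 0.992 to 0.995 among the 30 WAF libraries and 0.995 among the 17 WAF libraries, against 0.888 to 0.891 between the 2 ages. FPKM summed over all genes to 841143 to 845585 at 30 WAF and to 790578 to 804227 at 17 WAF. Library C of 30 WAF listed 36754 genes above 0, fewer than the 38351 to 39524 of the other 11 libraries. Counts of reads were not given, so the sequencing depth behind each value is unknown.

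Between 30 and 17 WAF 73.9% of the tested genes passed the threshold. The transcriptome moved in both directions, with 9122 genes higher at 30 WAF (34.9%) and 10178 lower (38.9%). The 3 libraries of the 2 ages did not overlap for 19590 genes (75.0%). Most changes were small: the median size of the log2 change was 0.37 over all tested genes, and 9530 of the genes called (49.4%) had changed by less than 0.5. A rise of at least 1 on the log2 scale was called for 1864 genes (7.13%) and a fall of that size for 2050 genes (7.85%). At a log2 change of 2 or more there were 486 rises (1.86%) and 579 falls (2.22%), and at 4 or more there were 64 rises (0.245%) and 46 falls (0.176%). The balance between directions depended on the scaling. Of the genes called, 47.3% were higher at 30 WAF with FPKM as deposited, 41.2% after rescaling each library to a fixed total and 51.2% after median-of-ratios scaling, and the median log2 change of all tested genes was -0.03, -0.10 and 0.01 under these scalings.

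The direction differed with abundance. Of the 63 tested genes with a mean of at least 1000 FPKM over the 6 libraries, 40 rose and 17 fell at 30 WAF, and of the 1326 genes between 100 and 1000 FPKM 740 rose and 454 fell. In the class from 1 to 10 FPKM the order was the other way round, with 3352 rises and 4944 falls among 12290 genes. Genes called higher made up 61.9% of the summed FPKM of all genes at 30 WAF and 40.1 to 40.2% at 17 WAF, whereas genes called lower made up 24.9% at 30 WAF and 45.8 to 46% at 17 WAF. The direction of these shares was set in advance, since the genes were grouped by their calls in the same libraries. Genes without a description moved more often down, with 780 rises and 1261 falls among 3606 tested.

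**Figure D1:**
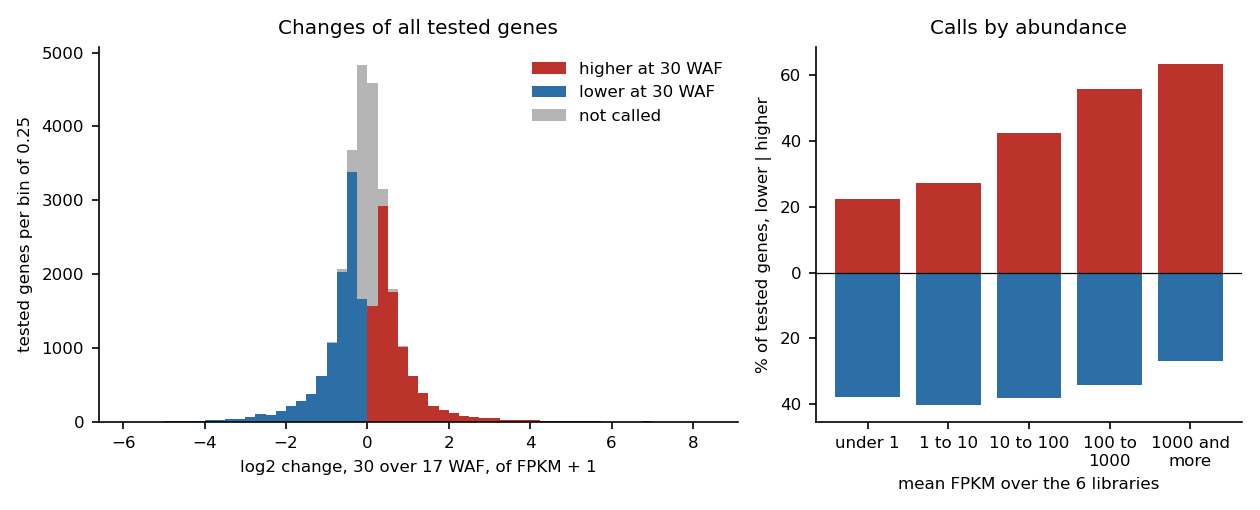
Left, histogram of the log2 change (30 WAF minus 17 WAF, bins of 0.25) of the 26131 tested genes by call. Right, percent of tested genes called higher or lower at 30 WAF in 5 classes of mean FPKM over the 6 libraries. Changes cluster near 0, with 9122 genes called higher and 10178 lower, and the share called higher is larger in the classes of high FPKM.

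The 15 largest rises among described genes with at least 10 FPKM at 30 WAF were led by the flavonoid branch that makes the purple pigments. LOC111368826, a leucoanthocyanidin dioxygenase that makes anthocyanidins, had 504, 518 and 514 FPKM at 30 WAF, against 0.24, 0.24 and 0.18 FPKM at 17 WAF (log2 change 8.72, SE 0.0474, adjusted p = 3.4e-18). LOC111397175, a glutathione S-transferase of class F11, had 1108, 1136 and 1159 FPKM at 30 WAF, against 8.26, 9.24 and 8.43 FPKM at 17 WAF (log2 change 6.88, adjusted p = 8.6e-18). The 2 chalcone synthases in this set, enzymes of the first committed step of flavonoid synthesis, stood at 95.0 to 128 FPKM in every 30 WAF library and at 0.34 to 0.74 FPKM in every 17 WAF library.

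Other large rises lay outside the flavonoid pathway. LOC111403048, a nitrate and peptide transporter family member (NRT1/PTR 5.1), had 46.9, 48.3 and 48.2 FPKM at 30 WAF, against 0.06, 0.07 and 0.05 FPKM at 17 WAF (log2 change 5.52, adjusted p = 6.8e-16). LOC111383654, a Kunitz trypsin inhibitor, which blocks digestive proteases, had 219, 222 and 227 FPKM at 30 WAF, against 4.64, 5.09 and 4.67 FPKM at 17 WAF (log2 change 5.27, adjusted p = 2.2e-16). For LOC111371536, a short glycine-rich protein, the levels were 443, 473 and 469 FPKM at 30 WAF, against 11.3, 11.6 and 11.3 FPKM at 17 WAF (log2 change 5.22, adjusted p = 6e-17). The rule for this set required that the libraries of the 2 ages did not overlap.

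The 15 largest falls were led by transcription factors and by genes known from stress and wall responses. LOC111381277, a NAC transcription factor described as NAC 90, had 3.36, 3.49 and 3.81 FPKM at 30 WAF, against 345, 356 and 350.2 FPKM at 17 WAF (log2 change -6.27, SE 0.0397, adjusted p = 4.5e-18). A second NAC 90 gene, LOC111366263, had 0.96, 0.64 and 0.59 FPKM at 30 WAF, against 25.1, 24.98 and 24.2 FPKM at 17 WAF. LOC111403895, a DREB factor of class 1B, whose relatives in Arabidopsis switch on cold response genes, had 11.2, 10.7 and 10.2 FPKM at 30 WAF, against 413, 408 and 393 FPKM at 17 WAF (log2 change -5.11, adjusted p = 3.2e-17).

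Among the other large falls, LOC111404223, described as a low-temperature-induced 65 kDa protein, averaged 2.35 ± 0.0379 FPKM at 30 WAF and 122 ± 1.14 FPKM at 17 WAF (SD, n = 3 each). Its log2 change was -5.19 (adjusted p = 3.4e-18). LOC111389935, an EXORDIUM protein, the namesake of a family tied to brassinosteroid growth responses in Arabidopsis, had 0.98, 1.49 and 0.61 FPKM at 30 WAF, against 111, 115 and 113 FPKM at 17 WAF. LOC111409968, a calmodulin-binding protein 60 C, fell to 3.78, 4.2 and 3.58 FPKM at 30 WAF, against 139.8, 139 and 136 FPKM at 17 WAF (log2 change -4.85, adjusted p = 9.8e-17). LOC111397422, a trehalose-phosphate phosphatase, which removes the phosphate of trehalose 6-phosphate, had 0.96, 0.34 and 0.44 FPKM at 30 WAF, against 46.05, 43.2 and 40.01 FPKM at 17 WAF. That the 17 WAF libraries all lay above the 30 WAF libraries was likewise a condition of this set.

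**Figure D2:**
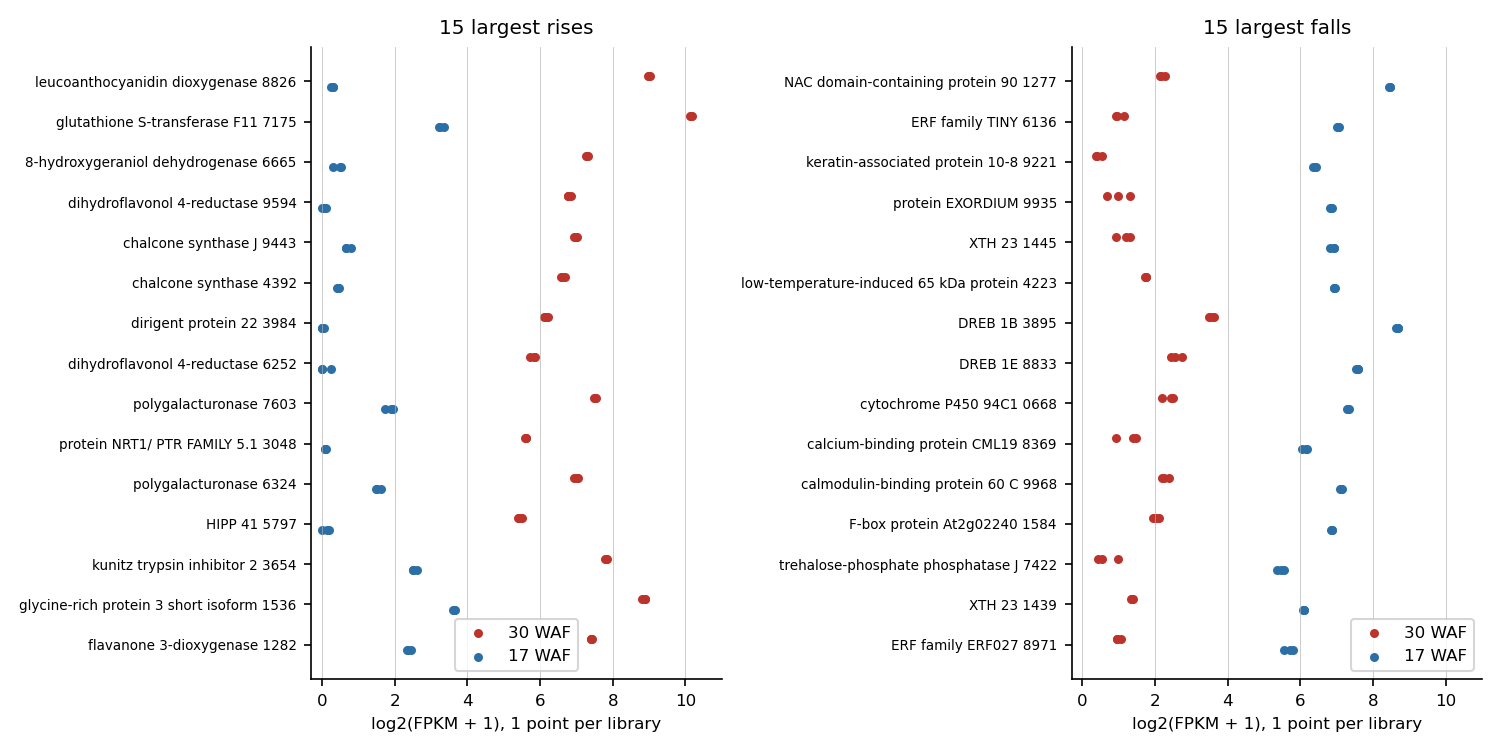
log2(FPKM + 1) of the 15 largest rises and the 15 largest falls in each library, with 30 WAF drawn in red above 17 WAF in blue, and each gene named by its description and the last 4 digits of its ID. The libraries of an age form tight groups that lie several log2 units from those of the other age, as in LOC111368826 (log2 change 8.72) and LOC111381277 (-6.27). This gap follows from the choice of genes by size of change without overlap.

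In absolute level, a lipid-transfer protein gene gained most. LOC111408002, a non-specific lipid-transfer protein 1, a small secreted protein that binds lipids and is found in the epidermis and cuticle of many plants, had 9691, 9434 and 9166 FPKM at 30 WAF, against 2125, 2397 and 2268 FPKM at 17 WAF (log2 change 2.06, SE 0.0635, adjusted p = 5.8e-12). Its neighbour on the chromosome, LOC111408003, of the same description, had 1976, 2018 and 2101 FPKM at 30 WAF, against 287, 307 and 297 FPKM at 17 WAF (log2 change 2.77, adjusted p = 2.5e-12). Over all 59 listed lipid-transfer proteins the summed level was 12371, 12160.2 and 11981 FPKM at 30 WAF, against 3096, 3406 and 3267 FPKM at 17 WAF, and of the 15 tested 9 rose and 5 fell. Nearly all of the gain in the sum lay in LOC111408002 and LOC111408003. One abundant member, LOC111408987, did not pass, with 231, 227 and 226 FPKM at 30 WAF, against 214, 213 and 213 FPKM at 17 WAF (adjusted p = 0.066, and 0.016 after median-of-ratios scaling).

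Other abundant genes also rose. LOC111369652, a metallothionein, a metal-binding protein, had 13555, 13289 and 13893 FPKM at 30 WAF, against 10519, 10257 and 9621 FPKM at 17 WAF (log2 change 0.42, adjusted p = 2.6e-07). LOC111386418, a subtilisin-like protease of the wall space, had 3250.0, 3246 and 3245 FPKM at 30 WAF, against 1457, 1542 and 1504 FPKM at 17 WAF (log2 change 1.11, adjusted p = 1.4e-10). LOC111381170, an RD22-type BURP domain protein, had 1684, 1818 and 1799.5 FPKM at 30 WAF, against 472, 444 and 469 FPKM at 17 WAF (log2 change 1.93, adjusted p = 6.4e-14). Each of these genes was higher in every 30 WAF library than in any 17 WAF library, which the rule for their choice required.

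A defensin was among the abundant genes with the largest losses in FPKM. LOC111369356, a defensin-like protein P322, a small antimicrobial peptide, had 1225, 1237 and 1167 FPKM at 30 WAF, against 3048, 3174 and 3096 FPKM at 17 WAF (log2 change -1.36, adjusted p = 2.7e-09). LOC111389477, an SRC1 protein, had 573, 483 and 525 FPKM at 30 WAF, against 2793, 2432 and 2453 FPKM at 17 WAF (log2 change -2.28, adjusted p = 1.3e-12), whereas the other abundant SRC1 gene, LOC111387830, had 10917, 10524 and 11332 FPKM at 30 WAF, against 11978, 13289 and 13174 FPKM at 17 WAF (log2 change -0.23, adjusted p = 0.0074), a small fall that did not pass without the filter on low values (adjusted p = 0.13). The means of LOC111387830 were 5498 FPKM at 21 WAF and 4428 FPKM at 26 WAF, below both ends. LOC111399585, a calmodulin, the cell's main calcium sensor, fell to 989, 942 and 913 FPKM at 30 WAF, against 2344, 2295 and 2272 FPKM at 17 WAF. LOC111384066, a bark storage protein, stood at 4547, 4505 and 4566 FPKM at 30 WAF, against 5347, 5542 and 5360.4 FPKM at 17 WAF (log2 change -0.25, adjusted p = 3.4e-06), a fall that was likewise lost without the filter (adjusted p = 0.11), but its mean was 41802 FPKM at 21 WAF and 17715 FPKM at 26 WAF, so the ends gave little of its course.

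Gene lists by function were read against the background of 34.9% higher and 38.9% lower among all tested genes and its median log2 change of -0.03. Several lists moved mainly upward at 30 WAF. Of 88 tested proteasome genes 73 rose and 10 fell, of 71 genes of the photosynthetic light reactions 63 rose and 3 fell, and of 55 plastid ribosome genes 44 rose and 3 fell. Others moved mainly downward. Of 83 genes of the NLR type, the intracellular disease resistance receptors, 8 rose and 68 fell, and of 62 genes of wall synthesis 13 rose and 40 fell.

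**Figure D3:**
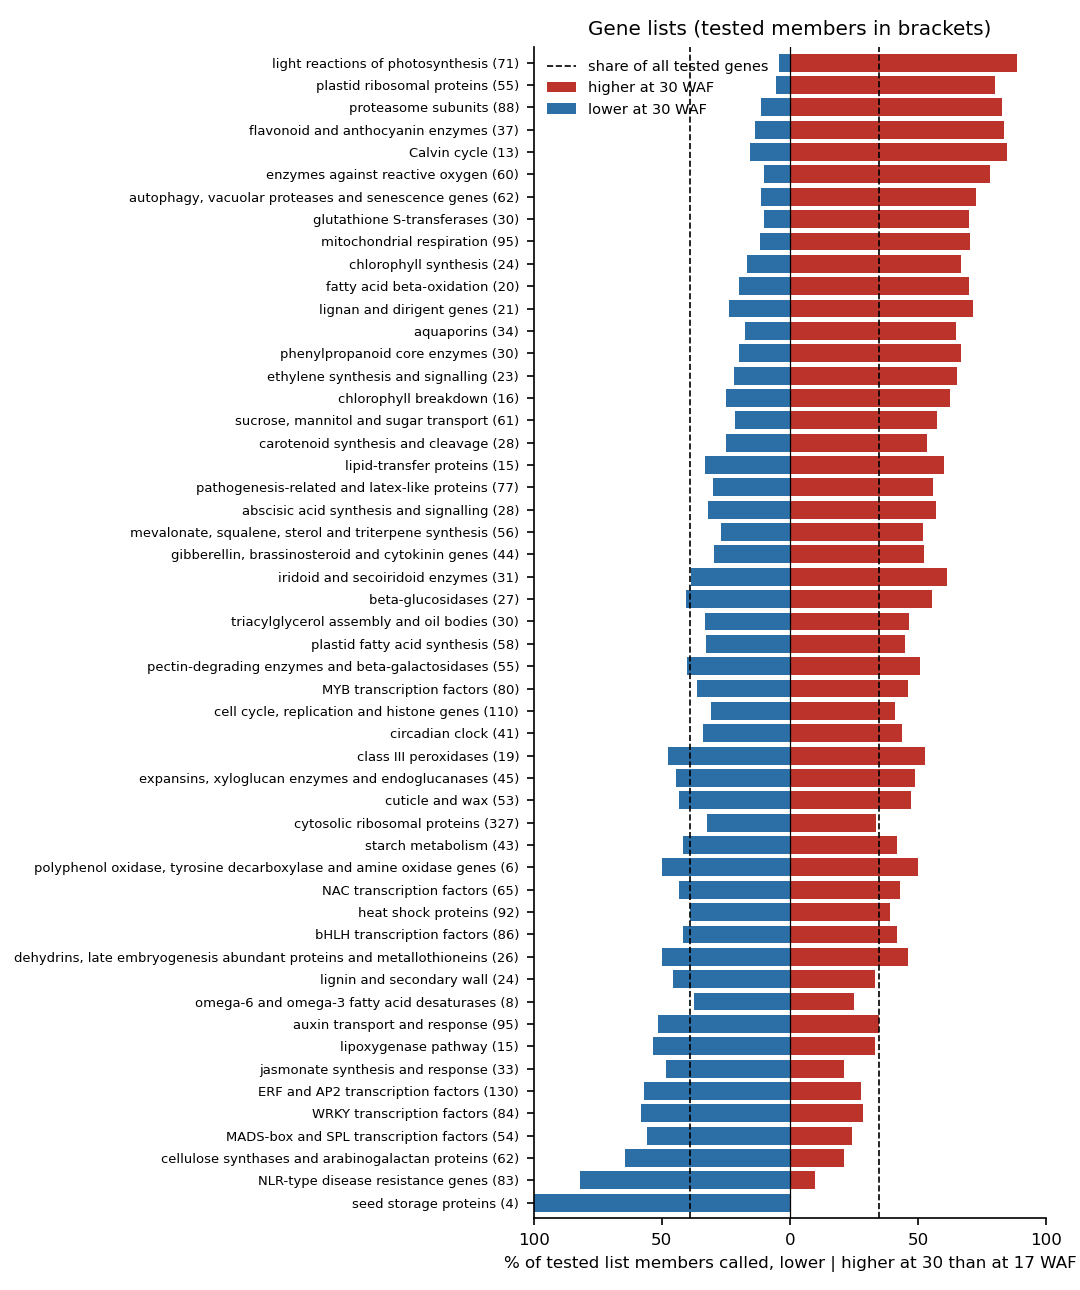
Percent of the tested members of 52 gene lists called lower (left) and higher (right) at 30 WAF. Dashed lines mark the shares over all tested genes, 38.9% lower and 34.9% higher. Proteasome, light reaction and plastid ribosome lists extend to the right and the NLR list to the left.

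Wall loosening and pectin cutting genes split by enzyme class. This split into classes was made from the descriptions after values had been seen. Of 15 tested expansins, which loosen walls without cutting them, 10 rose and 4 fell, with a median log2 change of 1.66. LOC111381719, an expansin A15, had 3109, 3139 and 3177 FPKM at 30 WAF, against 177, 180.2 and 175 FPKM at 17 WAF (log2 change 4.14, SE 0.0258, adjusted p = 4.5e-18). LOC111384671, an expansin A8, had 1055, 1050.2 and 1090.0 FPKM at 30 WAF, against 94.2, 103 and 104 FPKM at 17 WAF (log2 change 3.39, adjusted p = 1.8e-16). A further expansin A8, LOC111397188, had 30.9, 32.4 and 31.7 FPKM at 30 WAF, against 0.2, 0.22 and 0.43 FPKM at 17 WAF. Against these, LOC111398900, an expansin A1, fell to 143, 143 and 149.5 FPKM at 30 WAF, against 279.9, 308 and 289.9 FPKM at 17 WAF (log2 change -1.01, adjusted p = 4e-11).

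Xyloglucan endotransglucosylase/hydrolases (XTHs), which cut and rejoin the xyloglucan between cellulose fibrils, moved more often down, with 8 rises and 12 falls among 22. LOC111391445, an XTH of class 23, had 1.28, 1.49 and 0.91 FPKM at 30 WAF, against 111, 122 and 119 FPKM at 17 WAF (log2 change -5.74, adjusted p = 3e-15). LOC111391439, of the same family, had 1.62, 1.58 and 1.54 FPKM at 30 WAF, against 66.7, 67.4 and 67.8 FPKM at 17 WAF. Over the wall loosening list as a whole, 22 of 45 rose and 20 fell, and the median log2 change of -0.02 turned positive under median-of-ratios scaling and with a higher filter, so no direction is given for it. The summed level of all its listed genes was 5331, 5362 and 5446 FPKM at 30 WAF, against 1644, 1702 and 1675 FPKM at 17 WAF. The expansins LOC111381719 and LOC111384671 together gained more FPKM than this sum did, so the other members fell in sum.

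Pectin is the gel that holds neighbouring cells together. Pectate lyases, which cut it, rose in 8 and fell in 2 of 10 genes. LOC111405311, a pectate lyase 18, had 692, 695 and 716 FPKM at 30 WAF, against 44.97, 42.5 and 42.1 FPKM at 17 WAF (log2 change 3.99, adjusted p = 2.9e-17). Polygalacturonases, which also cut pectin, rose in 12 and fell in 8 of 22. LOC111377603, a polygalacturonase, had 182, 179 and 185 FPKM at 30 WAF, against 2.72, 2.84 and 2.33 FPKM at 17 WAF (log2 change 5.66, SE 0.0632, adjusted p = 3.6e-16). LOC111396324, of the same description, had 121, 131 and 129 FPKM at 30 WAF, against 1.87, 1.8 and 2.08 FPKM at 17 WAF. Because these 2 genes share a description and moved together, reads could have been split between them, and each value is uncertain to that extent. A polygalacturonase in the other direction, LOC111401119, had 2.56, 2.2 and 2.64 FPKM at 30 WAF, against 23.8, 24.8 and 25.2 FPKM at 17 WAF (log2 change -2.89, adjusted p = 1.7e-13).

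Pectinesterases, which remove the methyl groups of pectin, rose in 2 and fell in 5 of 8 genes. LOC111367315, a pectinesterase 1, had 70.2, 72.7 and 70.7 FPKM at 30 WAF, against 308, 319.7 and 322 FPKM at 17 WAF (log2 change -2.14, adjusted p = 1.2e-15). The beta-galactosidase LOC111387481, an enzyme that trims galactan side chains, had 367, 363 and 365 FPKM at 30 WAF, against 86.6, 92.4 and 90.9 FPKM at 17 WAF (log2 change 2.01, adjusted p = 1.6e-15), and 5 of 13 beta-galactosidases rose and 6 fell. All listed genes of the pectin list summed to 2782, 2801 and 2844 FPKM at 30 WAF, against 1223, 1259 and 1266 FPKM at 17 WAF.

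Wall synthesis genes were mostly lower. Among 28 cellulose synthases and cellulose synthase-like genes 6 rose and 20 fell, with a median log2 change of -0.82, and among 30 arabinogalactan proteins 6 rose and 17 fell. LOC111393401, a COBRA-like protein 7, of a family that orders cellulose deposition, had 9.09, 10.6 and 9.62 FPKM at 30 WAF, against 229.8, 238 and 245 FPKM at 17 WAF (log2 change -4.47, SE 0.0461, adjusted p = 1.8e-16). LOC111408123, a cellulose synthase-like protein D2, had 0.61, 0.55 and 0.76 FPKM at 30 WAF, against 19.6, 19.3 and 20.5 FPKM at 17 WAF (log2 change -3.67, adjusted p = 5.7e-15). Against the trend, the fasciclin-like arabinogalactan protein 13 gene LOC111392919 had 24.1, 26.7 and 25.6 FPKM at 30 WAF, against 5.37, 5.06 and 5.27 FPKM at 17 WAF (log2 change 2.09, adjusted p = 1.8e-13).

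Genes of sucrose, polyols and sugar transport were more often higher, with 35 of 61 tested members up and 13 down, and all listed genes summed to 4846, 4804 and 4807 FPKM at 30 WAF, against 1963, 1978 and 1975 FPKM at 17 WAF. LOC111399534, described as polyol transporter 1, a carrier of sugar alcohols, had 1580.1, 1579 and 1567 FPKM at 30 WAF, against 418, 431 and 433 FPKM at 17 WAF (log2 change 1.88, SE 0.0249, adjusted p = 1.5e-15). LOC111388601, annotated as sorbitol-6-phosphate dehydrogenase, an enzyme of polyol synthesis, had 815, 800.5 and 819 FPKM at 30 WAF, against 81.7, 79.1 and 79.4 FPKM at 17 WAF (log2 change 3.32, adjusted p = 1.8e-17). LOC111383352, a soluble beta-fructofuranosidase, the vacuolar invertase that splits sucrose, had 215, 221 and 210.1 FPKM at 30 WAF, against 6.43, 5.95 and 7.17 FPKM at 17 WAF (log2 change 4.85, adjusted p = 1.7e-16). The hexose carrier LOC111369468, sugar transport protein 13, had 46.8, 45.5 and 45.0 FPKM at 30 WAF, against 0.57, 0.62 and 0.58 FPKM at 17 WAF.

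The sucrose synthase LOC111366090, which splits sucrose with UDP, had 382, 379 and 374 FPKM at 30 WAF, against 226, 229 and 228 FPKM at 17 WAF (log2 change 0.73, adjusted p = 5.5e-12). Falling members were fewer. LOC111376816, a mitochondrial neutral invertase, had 28.5, 28.4 and 31.3 FPKM at 30 WAF, against 43.9, 44.2 and 43.0 FPKM at 17 WAF (log2 change -0.56, adjusted p = 4.2e-08). LOC111403073, a sucrose-phosphate synthase 2, which makes sucrose, had 6.62, 6.44 and 5.53 FPKM at 30 WAF, against 11.4, 10.4 and 11.2 FPKM at 17 WAF (log2 change -0.74, adjusted p = 2.9e-07).

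Starch genes showed no common direction, with 18 of 43 higher and 18 lower. LOC111393930, a plastid beta-amylase 3, which releases maltose from starch, had 102, 98.8 and 102 FPKM at 30 WAF, against 9.36, 8.88 and 8.81 FPKM at 17 WAF (log2 change 3.35, adjusted p = 7.9e-16), and the alpha-amylase LOC111409082 had 179, 173 and 186 FPKM at 30 WAF, against 77.6, 80.8 and 78.7 FPKM at 17 WAF (log2 change 1.17, adjusted p = 9.6e-13). The more abundant LOC111379737, beta-amylase 1, moved the other way and had 596, 591 and 611 FPKM at 30 WAF, against 1058, 1089 and 1082 FPKM at 17 WAF (log2 change -0.84, adjusted p = 9.2e-12).

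**Figure D4:**
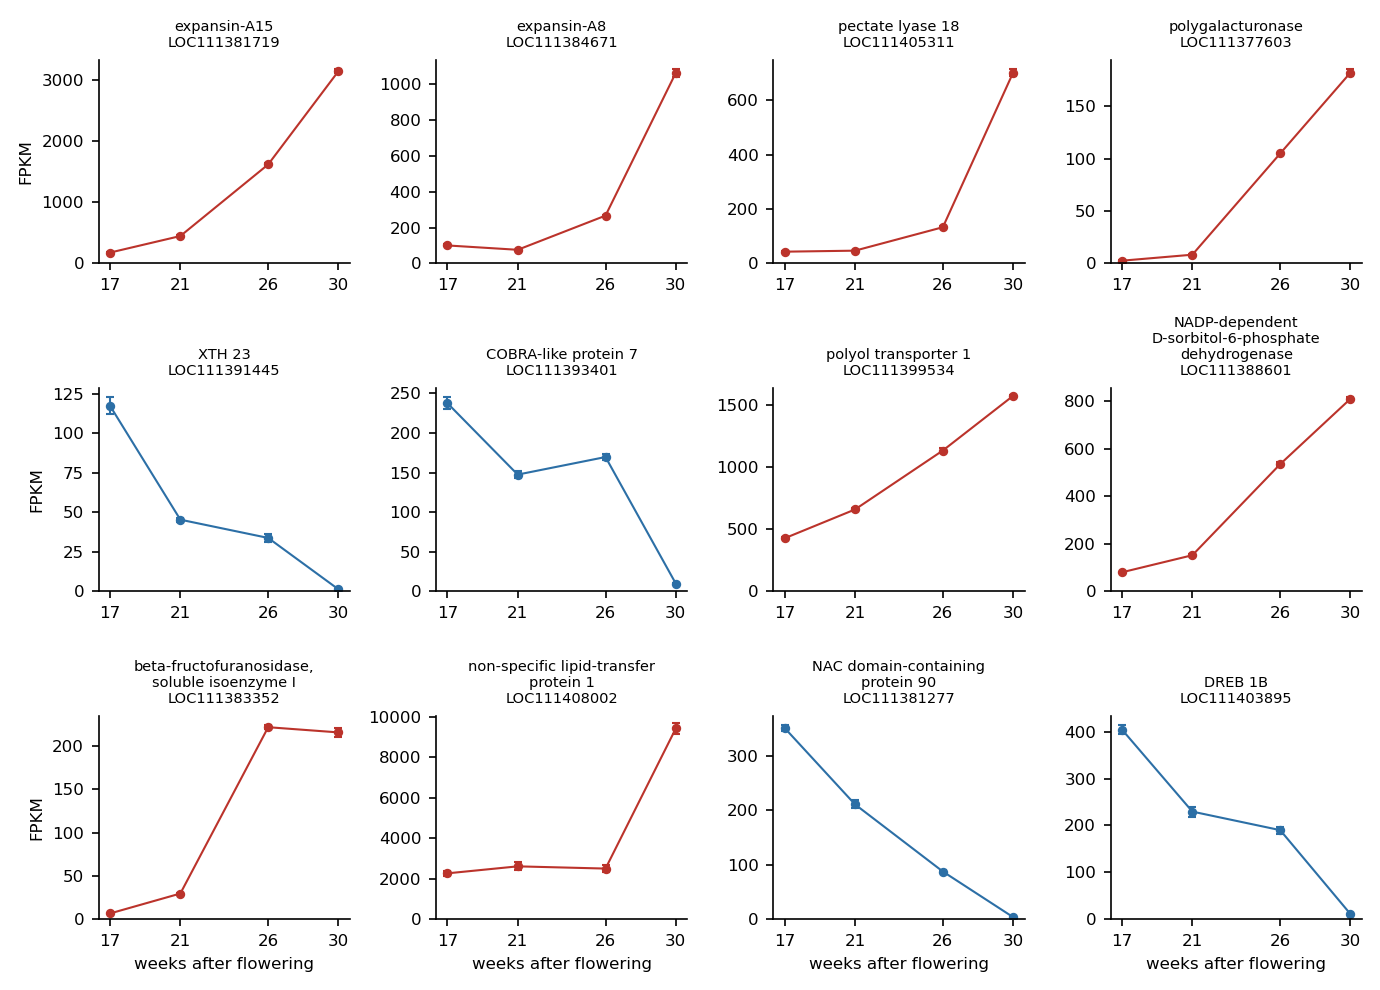
Mean FPKM with SD of 12 genes at 17, 21, 26 and 30 WAF (3 libraries each). Expansin A15 (LOC111381719) stood at 177, 448, 1617 and 3142 FPKM in age order and the soluble beta-fructofuranosidase (LOC111383352) at 6.52, 29.5, 222 and 216 FPKM, so one climbed through the final interval and the other had reached its level by 26 WAF.

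Photosynthetic genes were mostly higher at 30 than at 17 WAF, which does not give their course between these ages. Of 21 tested chlorophyll a-b binding proteins, the antenna of the photosystems, 20 rose and none fell. LOC111402246, chlorophyll a-b binding protein 21, had 1072, 1061 and 1089.5 FPKM at 30 WAF, against 240.0, 232 and 219 FPKM at 17 WAF (log2 change 2.22, adjusted p = 3.1e-13), yet its means of 1202 FPKM at 21 WAF and 1497 FPKM at 26 WAF exceeded both ends. The Rubisco small chain LOC111391236, of the enzyme that fixes CO2, had 2489, 2558 and 2346 FPKM at 30 WAF, against 779.5, 752 and 722 FPKM at 17 WAF (log2 change 1.71, adjusted p = 1.9e-12), while a second small chain gene, LOC111390908, had 187, 177 and 170.4 FPKM at 30 WAF, against 342, 345 and 331 FPKM at 17 WAF (log2 change -0.93, adjusted p = 7.8e-11). The means of LOC111391236 at 21 and 26 WAF, 3232 and 4758 FPKM, lay above both ends. Those of LOC111390908, 243 and 256 FPKM, lay between its ends. In the Calvin cycle 11 of 13 genes rose and 2 fell. Near-identical copies are common among these genes, so the split of reads between copies is uncertain.

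Chlorophyll synthesis genes rose in 16 and fell in 4 of 24, and chlorophyll breakdown genes rose in 10 and fell in 4 of 16. LOC111368827, a STAY-GREEN gene, whose product removes magnesium from chlorophyll, had 120.5, 120.0 and 114 FPKM at 30 WAF, against 41.2, 40.4 and 40.9 FPKM at 17 WAF (log2 change 1.51, adjusted p = 2.6e-13). In the other direction, LOC111384674, a pheophytinase, which removes the phytol tail, had 64.3, 65.9 and 65.03 FPKM at 30 WAF, against 114, 107 and 107 FPKM at 17 WAF (log2 change -0.74, adjusted p = 1.1e-10). LOC111377213, a chlorophyllase 2, had 17.2, 16.6 and 16.8 FPKM at 30 WAF, against 81.1, 86.6 and 82.9 FPKM at 17 WAF (log2 change -2.24, adjusted p = 5.5e-14). The entry enzyme of synthesis was lower too in LOC111410189, a glutamyl-tRNA reductase, with 2.91, 2.94 and 3.2 FPKM at 30 WAF, against 22.4, 23.2 and 24.6 FPKM at 17 WAF (log2 change -2.60, adjusted p = 2.1e-14).

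Carotenoid genes rose in 15 and fell in 7 of 28. LOC111387361, a carotenoid cleavage dioxygenase 4, which breaks carotenoids into aroma compounds, had 149, 155 and 155 FPKM at 30 WAF, against 38.1, 31.97 and 30.1 FPKM at 17 WAF (log2 change 2.17, adjusted p = 6.4e-11). The beta-carotene hydroxylase LOC111393339 fell to 18.6, 16.3 and 17.5 FPKM at 30 WAF, against 31.7, 34.2 and 30.5 FPKM at 17 WAF (log2 change -0.84, adjusted p = 9.7e-09).

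Genes of oil synthesis moved both ways. Of 58 fatty acid synthesis genes 26 rose and 19 fell, a balance that turned to 22 rises and 26 falls when each library was rescaled to a fixed total. LOC111375813, an acyl carrier protein, which holds the growing chain, had 2653, 2662 and 2817 FPKM at 30 WAF, against 1876, 2028 and 1952 FPKM at 17 WAF (log2 change 0.47, adjusted p = 8.4e-08). LOC111375456, a stearoyl-ACP desaturase, the enzyme that makes oleate, had 1543, 1555 and 1603 FPKM at 30 WAF, against 1895, 1935 and 1902 FPKM at 17 WAF (log2 change -0.29, adjusted p = 2e-07). The biotin carrier subunit of acetyl-CoA carboxylase, LOC111405363, of the first committed step, had 78.1, 80.2 and 82.8 FPKM at 30 WAF, against 334, 364 and 356 FPKM at 17 WAF (log2 change -2.11, SE 0.0355, adjusted p = 1.3e-14).

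Triacylglycerol assembly rose in 14 and fell in 10 of 30 genes. LOC111383725, a diacylglycerol acyltransferase 1A, the enzyme of the last step, had 17.7, 16.5 and 17.2 FPKM at 30 WAF, against 81.9, 81.0 and 74.03 FPKM at 17 WAF (log2 change -2.14, adjusted p = 4.8e-14), with means of 93.4 FPKM at 21 WAF and 93.99 FPKM at 26 WAF. LOC111402449, an oleosin of the oil body surface, had 252, 255 and 265 FPKM at 30 WAF, against 97.1, 108 and 107 FPKM at 17 WAF (log2 change 1.30, adjusted p = 3.1e-10). Fatty acid beta-oxidation, which degrades fatty acids, rose in 14 and fell in 4 of 20 genes, led in level by the peroxisomal thiolase LOC111392597 with 195, 195 and 191 FPKM at 30 WAF, against 83.7, 84.5 and 86.3 FPKM at 17 WAF (log2 change 1.18, adjusted p = 1.1e-13).

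Among the fatty acid desaturases 2 rose and 3 fell of 8, and 2 plastid omega-3 desaturases, which make linolenate, were lower. LOC111403247 had 6.89, 7.93 and 7.81 FPKM at 30 WAF, against 37.3, 35.8 and 34.7 FPKM at 17 WAF (log2 change -2.11, adjusted p = 4.2e-13). LOC111403039 had 47.5, 47.2 and 43.2 FPKM at 30 WAF, against 82.5, 84.1 and 84.9 FPKM at 17 WAF (log2 change -0.85, adjusted p = 7.6e-10). Lipoxygenases and hydroperoxide lyase, which turn polyunsaturated fatty acids into the volatiles of olive oil, differed by gene, with 5 of 15 lipoxygenase path genes up and 8 down. LOC111392344, a plastid 13S-lipoxygenase and the most abundant of the lipoxygenases, had 749.6, 747 and 724 FPKM at 30 WAF, against 551, 557 and 567 FPKM at 17 WAF (log2 change 0.41, adjusted p = 1.5e-08). Its means of 1536 FPKM at 21 WAF and 1448 FPKM at 26 WAF lay above both ends. LOC111368519, the hydroperoxide lyase, had 180.1, 188 and 192 FPKM at 30 WAF, against 510.4, 523 and 520.0 FPKM at 17 WAF (log2 change -1.47, adjusted p = 3.4e-13). LOC111366164, another plastid 13S-lipoxygenase, had 12.4, 12.4 and 12.8 FPKM at 30 WAF, against 64.7, 68.1 and 66.96 FPKM at 17 WAF (log2 change -2.32, adjusted p = 2.2e-15). LOC111410046, a 9S-lipoxygenase, went the other way with 260.0, 263 and 269.9 FPKM at 30 WAF, against 21.8, 20.1 and 20.3 FPKM at 17 WAF (log2 change 3.61, adjusted p = 5.8e-17), and another 9S gene, LOC111386480, had 20.6, 22.7 and 21.4 FPKM at 30 WAF, against 90.1, 91.1 and 91.5 FPKM at 17 WAF (log2 change -2.03, adjusted p = 1.7e-14).

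Phenylpropanoid genes, which turn phenylalanine into the precursors of flavonoids, lignans and lignin, rose in 20 and fell in 6 of 30. LOC111393218, a cinnamate 4-monooxygenase, the second step, had 307, 316 and 324 FPKM at 30 WAF, against 117, 117 and 113 FPKM at 17 WAF (log2 change 1.44, adjusted p = 5.7e-14). Of 37 flavonoid genes 31 rose and 5 fell. The MYB factors that share a name with anthocyanin regulators of Arabidopsis were among the rising MYB genes, with LOC111409128 (MYB113) at 11.8, 12.8 and 10.99 FPKM at 30 WAF, against 0.17, 0.14 and 0.14 FPKM at 17 WAF (log2 change 3.48, adjusted p = 3.7e-12) and LOC111389429 (MYB114) at 16.9, 17.2 and 15.99 FPKM at 30 WAF, against 2.8, 2.61 and 1.72 FPKM at 17 WAF.

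Lignan genes rose in 15 and fell in 5 of 21. Secoisolariciresinol dehydrogenases, enzymes of lignan synthesis, were 12 of the 21 tested, with 10 rises and 2 falls. LOC111412275 had 1453, 1427 and 1413 FPKM at 30 WAF, against 485, 505 and 499.8 FPKM at 17 WAF (log2 change 1.53, adjusted p = 1.4e-14) and its neighbour LOC111412276 had 429, 420.0 and 439 FPKM at 30 WAF, against 287, 296 and 290.4 FPKM at 17 WAF (log2 change 0.56, adjusted p = 2.4e-09). Iridoid genes, of the path toward oleuropein, rose in 19 and fell in 12 of 31. LOC111376443, a 7-deoxyloganetic acid glucosyltransferase, which adds the glucose of the iridoid core, had 329.6, 336 and 339.8 FPKM at 30 WAF, against 104, 112 and 109 FPKM at 17 WAF (log2 change 1.62, adjusted p = 1.5e-14).

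Of 27 beta-glucosidases 15 rose and 11 fell. LOC111404214, the most abundant of them, had 5469.9, 5274 and 5288 FPKM at 30 WAF, against 3817, 3680.2 and 3686 FPKM at 17 WAF (log2 change 0.52, adjusted p = 3.4e-08), and its means of 10009 FPKM at 21 WAF and 10788 FPKM at 26 WAF lay above both ends. The triterpene acids of the olive skin and flesh are made by beta-amyrin 28-oxidases. LOC111374953 had 599, 606 and 605 FPKM at 30 WAF, against 233, 232 and 239 FPKM at 17 WAF (log2 change 1.36, adjusted p = 1.5e-13). LOC111365629 had 374, 401 and 388 FPKM at 30 WAF, against 131, 131 and 129 FPKM at 17 WAF, whereas LOC111407310 had 174, 178 and 174 FPKM at 30 WAF, against 372, 378 and 383 FPKM at 17 WAF (log2 change -1.10, adjusted p = 6.6e-12). The polyphenol oxidase LOC111375437, which browns cut tissue, had 31.4, 30.9 and 30.4 FPKM at 30 WAF, against 74.98, 72.8 and 68.3 FPKM at 17 WAF (log2 change -1.19, adjusted p = 5.8e-12).

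Transcription factor families of stress signalling were mostly lower. Of 130 ERF and AP2 genes 36 rose and 74 fell, and of 84 WRKY genes 24 rose and 49 fell. In the DREB class, split off after values had been seen, 10 of 11 fell and none rose. LOC111366136, the ERF factor TINY, had 0.91, 1.23 and 0.93 FPKM at 30 WAF, against 129.5, 133 and 128 FPKM at 17 WAF (log2 change -6.02, adjusted p = 5.8e-17). LOC111378971, ERF027, had 0.94, 1.08 and 0.92 FPKM at 30 WAF, against 46.1, 51.5 and 54.8 FPKM at 17 WAF. LOC111402874, WRKY 53, had 8.36, 8.94 and 7.84 FPKM at 30 WAF, against 156, 161 and 158 FPKM at 17 WAF (log2 change -4.09, adjusted p = 1.1e-16). LOC111411943, WRKY 46, had 6.65, 5.92 and 6.64 FPKM at 30 WAF, against 81.4, 85.7 and 83.2 FPKM at 17 WAF (log2 change -3.51, adjusted p = 1.6e-15). The Arabidopsis genes of these 2 WRKY names act in defence and leaf senescence.

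Rising members were fewer. LOC111409375, an ERF factor named ABR1, had 63.3, 65.98 and 66.5 FPKM at 30 WAF, against 2.38, 3.03 and 3.29 FPKM at 17 WAF (log2 change 4.09, adjusted p = 2.5e-14). LOC111396152, WRKY 75, had 11.5, 9.28 and 10.1 FPKM at 30 WAF, against 1.59, 2.17 and 1.95 FPKM at 17 WAF (log2 change 1.96, adjusted p = 1.3e-09). NAC genes split evenly, with 28 of 65 up and 28 down. LOC111377467, NAC 50, had 472, 487 and 484 FPKM at 30 WAF, against 131, 140.3 and 140.2 FPKM at 17 WAF (log2 change 1.80, adjusted p = 6.4e-14). LOC111393460, NAC 72, had 38.4, 36.6 and 38.7 FPKM at 30 WAF, against 8.93, 10.01 and 9.47 FPKM at 17 WAF (log2 change 1.89, adjusted p = 6.6e-13), while LOC111404243, NAC 91, had 60.3, 60.9 and 57.8 FPKM at 30 WAF, against 426, 421 and 419 FPKM at 17 WAF (log2 change -2.80, adjusted p = 5.7e-16).

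Among MADS-box and SPL genes, which set organ identity and ripening in many fruits, 13 of 54 rose and 30 fell. The 2 abundant AGAMOUS genes went against this: LOC111412195 had 620.4, 635 and 649 FPKM at 30 WAF, against 198, 201 and 197 FPKM at 17 WAF (log2 change 1.67, adjusted p = 1.4e-14). LOC111373696 had 396, 381 and 387 FPKM at 30 WAF, against 184, 196 and 194 FPKM at 17 WAF (log2 change 1.02, adjusted p = 2.3e-12). LOC111406228, an AGL9 homolog, fell to 389, 404 and 402 FPKM at 30 WAF, against 593, 608 and 617 FPKM at 17 WAF (log2 change -0.60, adjusted p = 1.7e-10). LOC111411543, an SPL8 gene, had 51.7, 57.1 and 57.2 FPKM at 30 WAF, against 168, 179 and 178 FPKM at 17 WAF (log2 change -1.65, adjusted p = 5.4e-13).

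Hormone genes changed at the level of single steps. In ethylene synthesis and signalling 15 of 23 rose and 5 fell. LOC111370659, an ACC oxidase, which makes ethylene in the last step, had 97.6, 99.8 and 102 FPKM at 30 WAF, against 2.73, 2.31 and 2.82 FPKM at 17 WAF (log2 change 4.80, adjusted p = 2e-14), whereas LOC111380501, an ACC synthase, of the step before, had 0.64, 0.58 and 0.44 FPKM at 30 WAF, against 29.5, 28.1 and 28.5 FPKM at 17 WAF (log2 change -4.26, SE 0.0554, adjusted p = 1.3e-15). The 3 most abundant EIN3 genes, coding for the signal's master factors, changed little or did not pass, with log2 changes from 0.40 in LOC111401530 to -0.06 in LOC111391955 (adjusted p = 0.26, and 0.0061 after rescaling to a fixed total).

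For abscisic acid, 16 of 28 genes rose and 9 fell. LOC111410611, an abscisic acid 8'-hydroxylase 4, which degrades the hormone, had 202, 203 and 204 FPKM at 30 WAF, against 48.2, 51.8 and 50.97 FPKM at 17 WAF (log2 change 1.99, adjusted p = 2.4e-14), while LOC111404289, 8'-hydroxylase 1, had 1.16, 0.9 and 1.13 FPKM at 30 WAF, against 18.5, 18.2 and 17.9 FPKM at 17 WAF (log2 change -3.22, adjusted p = 5.5e-13). LOC111408761, a protein named after abscisic stress and ripening, had 1901, 1840.1 and 1819 FPKM at 30 WAF, against 885, 928 and 889.8 FPKM at 17 WAF (log2 change 1.04, adjusted p = 3.1e-11). Auxin genes rose in 33 and fell in 49 of 95. LOC111409930, auxin response factor 18, had 3.05, 3.32 and 3.35 FPKM at 30 WAF, against 49.5, 48.1 and 47.2 FPKM at 17 WAF (log2 change -3.54, adjusted p = 3e-16), and the small auxin-up gene SAUR36, LOC111368774, had 9.66, 10.3 and 9.19 FPKM at 30 WAF, against 78.1, 91.3 and 87.0 FPKM at 17 WAF. The SAUR50 gene LOC111412088 was higher, with 19.01, 18.7 and 18.4 FPKM at 30 WAF, against 1.14, 1.58 and 1.04 FPKM at 17 WAF.

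Gibberellin, brassinosteroid and cytokinin genes rose in 23 and fell in 13 of 44, and the steps differed. The gibberellin 20-oxidase LOC111367679, an enzyme of synthesis, had 260.3, 261 and 258 FPKM at 30 WAF, against 134, 132 and 124 FPKM at 17 WAF (log2 change 0.99, adjusted p = 6.8e-11), and the gibberellin 3-oxidase LOC111380035, which makes the active hormone, had 27.6, 28.4 and 34.6 FPKM at 30 WAF, against 2.57, 2.54 and 2.61 FPKM at 17 WAF (log2 change 3.12, adjusted p = 2.1e-13). LOC111408959, a BRASSINAZOLE-RESISTANT 1 gene, coding for a brassinosteroid response factor, had 19.8, 19.99 and 19.5 FPKM at 30 WAF, against 104, 107 and 112 FPKM at 17 WAF (log2 change -2.39, adjusted p = 1.8e-15). LOC111374059, of the same description, had 2.13, 1.58 and 1.57 FPKM at 30 WAF, against 17.4, 17.0 and 17.97 FPKM at 17 WAF. Jasmonate genes rose in 7 and fell in 16 of 33, and among the TIFY repressors 1 rose and 9 fell of 17. LOC111404294, TIFY 10A, had 53.4, 59.6 and 57.3 FPKM at 30 WAF, against 389, 425 and 411 FPKM at 17 WAF (log2 change -2.83, adjusted p = 3.2e-14).

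Falls outnumbered rises among the NLR receptors, 68 to 8. LOC111397314, annotated as At5g63020, had 15.9, 16.02 and 15.8 FPKM at 30 WAF, against 42.1, 42.5 and 40.9 FPKM at 17 WAF (log2 change -1.34, adjusted p = 2.5e-11). LOC111386466, an RPP13-like gene, had 11.4, 11.8 and 12.6 FPKM at 30 WAF, against 24.6, 24.8 and 26.2 FPKM at 17 WAF (log2 change -1.02, adjusted p = 1.5e-10). An exception was LOC111397311 (At4g33300), with 61.8, 61.3 and 58.4 FPKM at 30 WAF, against 35.4, 37.3 and 37.3 FPKM at 17 WAF (log2 change 0.71, adjusted p = 1.4e-09). Pathogenesis-related and latex-like proteins went both ways, with 43 of 77 up and 23 down, while their summed level was lower, at 7209.5, 7275 and 7211 FPKM at 30 WAF, against 8669.9, 8902 and 8791 FPKM at 17 WAF. The defensin LOC111369356, a member of this list, alone lost more FPKM than this sum did, so the other members rose in sum. The thaumatin-like gene LOC111407528 had 1552, 1635 and 1663 FPKM at 30 WAF, against 1053, 1216 and 1239 FPKM at 17 WAF (log2 change 0.47, adjusted p = 0.00015), and the glucanase LOC111395521 had 5.79, 6.21 and 6.06 FPKM at 30 WAF, against 45.2, 45.9 and 45.6 FPKM at 17 WAF (log2 change -2.73, adjusted p = 1.4e-15).

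Protein degradation and respiration genes were mostly higher, by small steps. The median log2 change was 0.53 in the proteasome list and 0.34 in the respiration list, where 67 of 95 rose and 11 fell. LOC111403638, a proteasome regulatory subunit 4, had 281, 287 and 280.1 FPKM at 30 WAF, against 196, 200.4 and 194 FPKM at 17 WAF (log2 change 0.52, adjusted p = 3.7e-10). LOC111365434, a cytochrome c oxidase subunit 6a of the respiratory chain, had 204, 217 and 209 FPKM at 30 WAF, against 80.4, 87.9 and 85.9 FPKM at 17 WAF (log2 change 1.30, adjusted p = 3.3e-10). A rise called for the oxidase subunit 5C-1, LOC111375317, rested on uneven libraries, with 18.1, 30.3 and 22.3 FPKM at 30 WAF, against 8.86, 0 and 0 FPKM at 17 WAF.

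Of 62 senescence and vacuolar protease genes 45 rose and 7 fell, and within it 26 of 34 autophagy genes, which carry cell contents to the vacuole, rose and 1 fell. LOC111376116, a vacuolar-processing enzyme, had 1244, 1214 and 1222 FPKM at 30 WAF, against 526, 561 and 561 FPKM at 17 WAF (log2 change 1.16, adjusted p = 1.5e-12). Cytosolic ribosome genes had no common direction, with 110 of 327 higher and 106 lower. More were lower than higher after rescaling to a fixed total and without the filter. The same held when library C of 17 WAF or library A or B of 30 WAF was left out. Plastid ribosome genes rose in 44 of 55, with a median of 0.48.

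Antioxidant genes rose in 47 and fell in 6 of 60. LOC111371766, a catalase 3, which breaks down hydrogen peroxide, had 1746, 1734 and 1759 FPKM at 30 WAF, against 708, 724 and 727 FPKM at 17 WAF (log2 change 1.28, adjusted p = 1e-13), but LOC111378800, a copper-zinc superoxide dismutase, had 343, 342 and 355 FPKM at 30 WAF, against 528, 535 and 513 FPKM at 17 WAF (log2 change -0.60, adjusted p = 5.8e-08). Glutathione S-transferases rose in 21 and fell in 3 of 30. Aquaporins, the water channels of membranes, rose in 22 and fell in 6 of 34. The plasma membrane channel PIP2-1, LOC111381590, had 39.5, 41.3 and 38.6 FPKM at 30 WAF, against 2.36, 2.52 and 1.92 FPKM at 17 WAF (log2 change 3.65, adjusted p = 1e-13), and the vacuolar channel TIP1-2, LOC111393814, had 5.53, 6.49 and 5.15 FPKM at 30 WAF, against 17.3, 18.99 and 20.2 FPKM at 17 WAF (log2 change -1.56, adjusted p = 6.3e-10).

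Cell cycle and histone genes rose in 45 and fell in 34 of 110. LOC111408072, a histone H2A.1, had 14.2, 11.9 and 12.3 FPKM at 30 WAF, against 223, 209 and 206 FPKM at 17 WAF (log2 change -3.96, adjusted p = 4e-15). LOC111401867, a cyclin-dependent kinase G-2, had 28.1, 27.2 and 27.9 FPKM at 30 WAF, against 136, 136 and 134 FPKM at 17 WAF (log2 change -2.25, adjusted p = 1.1e-14). In the other direction, LOC111379952, a histone H2B, had 200.2, 202 and 212 FPKM at 30 WAF, against 92.7, 91.1 and 97.3 FPKM at 17 WAF (log2 change 1.12, adjusted p = 2.2e-11).

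Genes that share a description did not always move together. Among 2102 descriptions with at least 2 called genes of at least 10 FPKM in the higher age, 826 (39.3%) had calls in both directions. Descriptions can hold more than 2 genes, and no expected share was worked out for them. Among pairs whose genes each had at least 10 FPKM at the higher age, the widest gap was in the heavy metal-associated isoprenylated plant protein 41 genes: LOC111395797 had 44.2, 41.1 and 42.1 FPKM at 30 WAF, against 0.09, 0.13 and 0 FPKM at 17 WAF (log2 change 5.34, adjusted p = 2.4e-14), while LOC111370985 had 16.3, 16.2 and 13.6 FPKM at 30 WAF, against 387, 389.8 and 392 FPKM at 17 WAF (log2 change -4.58, adjusted p = 3.4e-15). Of 9 called 8-hydroxygeraniol dehydrogenases of at least 10 FPKM in the higher age, which oxidise a precursor of the iridoids, 6 rose and 3 fell. LOC111376665 had 159, 154 and 156 FPKM at 30 WAF, against 0.43, 0.22 and 0.4 FPKM at 17 WAF. LOC111373465 had 26.4, 25.6 and 26.2 FPKM at 30 WAF, against 74.8, 71.01 and 69.7 FPKM at 17 WAF. The cytochrome P450 94C1 genes, whose Arabidopsis namesake inactivates jasmonate, split into LOC111412635, with 18.2, 19.2 and 17.3 FPKM at 30 WAF, against 1.25, 1.41 and 1.45 FPKM at 17 WAF, and LOC111400668, with 3.6, 4.64 and 4.41 FPKM at 30 WAF, against 155, 159.7 and 157 FPKM at 17 WAF. In the beta-amylase 3 pair LOC111390256 fell to 3.78, 4.44 and 4.2 FPKM at 30 WAF, against 29.9, 31.7 and 30.8 FPKM at 17 WAF while LOC111393930 rose, as given above.

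**Figure D5:**
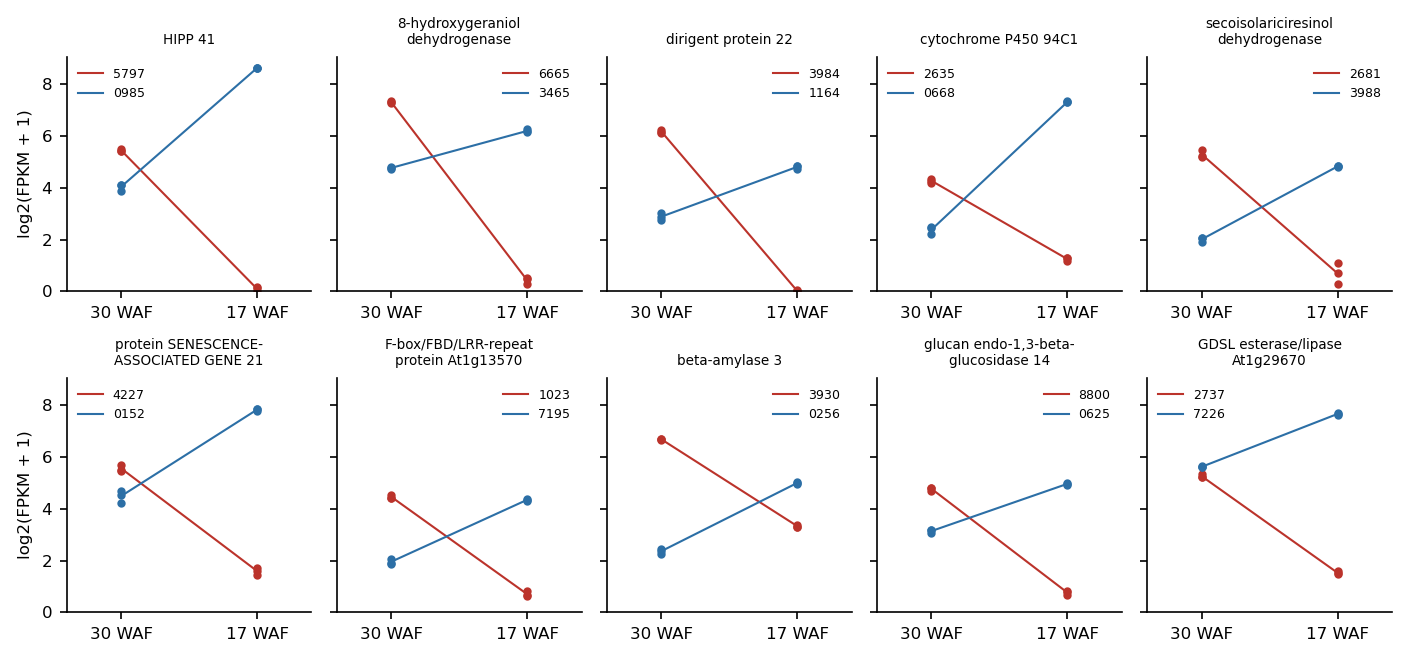
FPKM on a log scale of 10 pairs of genes with the same description and opposite calls, with 30 WAF at the left and 17 WAF at the right of each panel, points for libraries and lines between the means. The lines of a pair slope in opposite directions in every panel, as in LOC111395797 (log2 change 5.34) and LOC111370985 (-4.58).

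Genes adjacent on a chromosome of the RefSeq assembly O_europaea_v1 were compared by name and order only. Of 175 adjacent pairs with the same description and both genes called, 137 (78.3%) moved the same way, and of 4378 adjacent called pairs with other descriptions 2333 (53.3%) did. The abscisic stress-ripening genes LOC111408760 and LOC111408761 are such neighbours, and both rose, LOC111408760 with 2262, 2441 and 2586 FPKM at 30 WAF, against 1689.5, 1665 and 1749.5 FPKM at 17 WAF (log2 change 0.51, adjusted p = 9.1e-07). Their courses between the ends differed. LOC111408760 averaged 1290 and 1084 FPKM at 21 and 26 WAF, and LOC111408761 averaged 1490 and 1969 FPKM.

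The middle ages show where levels lay between or beyond the ends. The genes were called from the same end libraries, so the shares that follow are description only. Of the genes higher at 30 WAF, 35.4% had both middle means between the ends, 17.5% had a middle mean above both ends and 44.5% had one below both ends, with 2.55% having 1 of each. Of the genes lower at 30 WAF these shares were 37.8%, 25.7%, 33.3% and 3.21%. They compare means of FPKM as deposited, with no margin and no test. The median-of-ratios factors differed by age, with 1.045 to 1.056 at 17 WAF and 0.9883 to 0.9972 at 21 WAF. At 26 WAF they were 0.9351 to 0.9526 and at 30 WAF 1.014 to 1.018. How the shares depend on the scaling was not tested. Among the 485 rises of at least 2 on the log2 scale of the means, the largest part fell into the interval from 26 to 30 WAF in 48.0%, into 21 to 26 WAF in 34.6% and into 17 to 21 WAF in 17.3%. Among the 574 falls of that size these shares were 76.3%, 9.93% and 13.8%. The NAC 90 gene LOC111381277, for example, averaged 351, 211, 87.3 and 3.55 FPKM at 17, 21, 26 and 30 WAF.

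A few genes were near 0 at one end. By a rule set after values had been seen, 9 genes averaged under 0.05 FPKM at 17 WAF and at least 10 FPKM at 30 WAF, and 0 genes met the rule the other way round. LOC111409594, a dihydroflavonol 4-reductase of anthocyanin synthesis, had 109, 109 and 115 FPKM at 30 WAF, against 0.04, 0 and 0.07 FPKM at 17 WAF. LOC111383984, a dirigent protein 22, of a family that steers lignan coupling, had 68.6, 70.5 and 73.03 FPKM at 30 WAF, against 0, 0 and 0.03 FPKM at 17 WAF. No fold is given for such genes, because the log2 change of a gene near 0 depends on the pseudocount. At the other end, LOC111380905, a cinnamoyl-CoA reductase 1, was listed at 0 in all 30 WAF libraries and had 1.71, 8.16 and 10.8 FPKM in the 17 WAF libraries.

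Markers of neighbouring tissues were measured beside these results. Seed storage proteins, 4 of whose 11 listed genes were tested, fell in all 4, and the summed level of the 11 was 75.4, 72.1 and 78.3 FPKM at 30 WAF, against 170.2, 174 and 169.9 FPKM at 17 WAF. Most of it was LOC111393661, a vicilin-like protein, with 65.4, 62.3 and 66.5 FPKM at 30 WAF, against 131, 134 and 134 FPKM at 17 WAF. A tested gene of the 2S storage type had 6.26, 6.7 and 7.94 FPKM at 30 WAF, against 33.6, 33.8 and 30.97 FPKM at 17 WAF (log2 change -2.09). Of the untested 2S genes, 2 were listed at 0 in all 6 libraries. Lignin genes, high in the stone, rose in 8 and fell in 11 of 24 tested members of 75, with sums of 1427, 1419 and 1413 FPKM at 30 WAF, against 894, 929 and 908 FPKM at 17 WAF. Cuticle genes, high in the skin, rose in 25 and fell in 23 of 53 tested of 95, with sums of 2619.8, 2641 and 2663 FPKM at 30 WAF, against 1585, 1583 and 1575 FPKM at 17 WAF. The wax gene ECERIFERUM 3, LOC111385303, had 568, 566 and 566 FPKM at 30 WAF, against 168, 164 and 168 FPKM at 17 WAF (log2 change 1.76, adjusted p = 1.5e-14). In 2 classes of the cuticle list, split off after values had been seen, falls outnumbered rises. Of 18 tested 3-ketoacyl-CoA synthases 5 rose and 12 fell, and of 17 HD-ZIP IV homeobox proteins 5 rose and 11 fell. The summed levels of the cuticle and lignin lists were higher at 30 WAF although their members went both ways, the summed seed storage level was lower, and the part of these tissues in the results was not tested.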

How the data were processed

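The deposited table gives FPKM per gene in 12 libraries, computed by the authors. The labels' protocols describe CTAB extraction of mesocarp RNA, clean-up on a column with DNase, and sequencing by DNBseq. The submitters' processing notes list RSEM, Bowtie2 2.2.5, StringTie 1.0.4 and HISAT2 2.0.4, with no roles. Neither the genome build nor the strand setting is given in those sources, so coordinates and sequences are left out, and gene names come from the deposited table. All 37991 described IDs matched the RefSeq gene table, which gave the order of neighbours.

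Read depth could not be recovered from the FPKM, so no counting intervals are given. Genes with at least 1 FPKM in at least 3 libraries were tested on log2(FPKM + 1) with limma 3.58.1 in R 4.3.3: 1 mean per age over all 12 libraries, the contrast 30 minus 17 WAF, an intensity trend and Benjamini-Hochberg adjustment over 26131 genes. The fit left 8 residual degrees of freedom, and the median residual SD was 0.0803 on the log2 scale. Tables and figures used Python 3.11.15, pandas 2.3.3, numpy 2.4.6 and matplotlib 3.10.9. The fit was also tested on simulated data with known changes, whose means and spread were taken from these libraries.

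Named genes are, by rule, the 15 largest rises and 15 largest falls by log2 change (at least 10 FPKM in the higher age, no overlap between the ages), the 10 largest each way by difference of FPKM, the 10 most abundant at each age, in each of 52 lists the 3 most abundant members and the 2 largest rises and falls of at least 5 FPKM, and 10 pairs of opposite copies (at least 10 FPKM in the higher age). The lists, made by searching descriptions, and the choice of genes were made with earlier results of these data known, and entries whose descriptions did not belong to a list were removed on the description alone. Classes within lists and the rule for genes near 0 were set after values were seen. Alternatives were pseudocount 0.1, no filter, a mean of at least 5 FPKM, rescaling to a fixed total, median-of-ratios scaling, library weights, the 2 ages alone, a replicate term and leaving out each of the 6 libraries.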

Additional observations from a re-analysis of the deposited data

How the results depend on the processing

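The number of genes higher at 30 WAF stayed between 6786 and 10528 over the alternatives, against 9122. The number lower was 6568 with a mean of at least 5 FPKM, where 16697 genes were tested, and between 9398 and 12265 in the others, against 10178. The share of calls that were higher was 50.8% with that filter and 51.2% with median-of-ratios scaling, against 47.3%, and the cause was not tested. Leaving out each library in turn gave 8730 to 8940 genes higher and 9667 to 9924 lower. Deviations of same-letter libraries of the 2 ages correlated by -0.00421 to 0.0392, and those of different-letter libraries by -0.028 to 0.0283. These values cannot settle whether a letter marked a shared tree, since the spread between libraries may be technical. With a replicate block 9081 genes were higher and 10134 lower. Of 145 genes named, 4 changed side of the threshold under some alternative and 0 changed direction: LOC111384066 and LOC111387830 missed it without a filter (adjusted p = 0.11 and 0.13, limma), while LOC111391955 passed after rescaling to a fixed total (0.0061) and LOC111408987 after median-of-ratios scaling and with the 2 ages alone (0.016 and 0.005). The median log2 change of 13 of 52 lists changed sign under at least 1 alternative, among them wall loosening, cytosolic ribosome, fatty acid synthesis, lignin, cuticle and NAC genes, for whose members the text gives counts and no common direction. Depth is unknown, so changes of genes near 0 are the least certain.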

Other observations

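Heat shock genes had no common direction, with 36 of 92 higher and 36 lower: LOC111391235, a mitochondrial heat shock protein of 22 kDa, had 114, 110.0 and 117 FPKM at 30 WAF, against 3.96, 4.21 and 4.19 FPKM at 17 WAF (log2 change 4.48, adjusted p = 6e-17). LOC111385111, a heat shock cognate 70 kDa protein, had 346, 340.3 and 359 FPKM at 30 WAF, against 867, 827 and 817 FPKM at 17 WAF (log2 change -1.26, adjusted p = 4.7e-13). Clock genes rose in 18 and fell in 14 of 41, and LOC111394716, an LNK1 gene, had 25.98, 26.9 and 26.2 FPKM at 30 WAF, against 7.86, 7.83 and 7.97 FPKM at 17 WAF (log2 change 1.62, adjusted p = 7.1e-14). The hour of picking is not given in the labels, and its part in the clock genes was not tested.

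Sterol and triterpene genes rose in 29 and fell in 15 of 56. LOC111409359, an HMG-CoA reductase, which makes mevalonate, had 5.39, 5.57 and 5.56 FPKM at 30 WAF, against 39.5, 40.3 and 39.8 FPKM at 17 WAF (log2 change -2.65, adjusted p = 2.5e-15). Of 86 bHLH factors 36 rose and 36 fell, and LOC111399002, bHLH75, had 534, 538 and 525 FPKM at 30 WAF, against 88.5, 88.8 and 88.5 FPKM at 17 WAF (log2 change 2.57, adjusted p = 3.2e-17). Of 26 dehydrin, late embryogenesis and metallothionein genes 12 rose and 13 fell, with LOC111405680, a late embryogenesis abundant protein, at 109.7, 111 and 104 FPKM at 30 WAF, against 767, 749.7 and 735 FPKM at 17 WAF (log2 change -2.79, adjusted p = 4.2e-15). Among 19 class III peroxidases 10 rose and 9 fell, and LOC111399512, peroxidase 15, had 11.4, 9.69 and 10.5 FPKM at 30 WAF, against 160.4, 168 and 169 FPKM at 17 WAF (log2 change -3.86, adjusted p = 2.5e-15).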
